A study of Mus musculus with 2 samples.

Results

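The genes described here are those of the cell division cycle, in leukocytes of YUMM1.7 melanomas. They comprise a fixed list of 45 gene symbols split by role: 20 genes of DNA replication, from Mcm2 to Uhrf1, and 25 genes of mitosis, from Mki67 to Stmn1. Of these, 44 of the 27998 genes in the count matrices were found by symbol (19 replication and 25 mitosis genes). Pclaf, the remaining one, is present under its older symbol 2810417H13Rik, and it was kept apart from the summed values. YUMM1.7 is a mouse melanoma cell line. One library was made from human APOE2 knock-in mice and the other from human APOE4 knock-in mice; in each genotype 6 mice received 100000 tumour cells under the skin of the flank, mixed with Matrigel, and tumours were taken on day 19. From every mouse 10000 live CD45+ leukocytes were sorted, the 60000 cells of a genotype were pooled before library preparation, and 5000 cells were targeted for droplet single-cell RNA sequencing. Mice with their own Apoe were not analysed here, and the sources used here do not give sex, age or strain background.

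With 1 pooled library per genotype there is no replicate. No test of genotype is therefore possible, every interval below covers counting error only, and a difference between the libraries cannot be told apart from a difference between mice, sorts or library preparations. The APOE2 matrix held 5063 barcodes and the APOE4 matrix 5689, of which the authors annotated 4665 and 5385 cells with 26 cell labels. Median depth was 7160 UMIs per annotated cell in APOE2 and 5560 in APOE4, so shares of cells were computed after each cell was thinned to 1500 UMIs. This kept 4317 and 5045 cells and left out 348 and 340 shallower ones. Only 8 annotated barcodes occurred in both libraries.

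A dividing cell first licenses and copies its DNA and then separates the copies. E2F transcription factors, released when cyclin-dependent kinases phosphorylate the retinoblastoma protein, switch on the replication genes: the MCM helicase subunits (Mcm2 to Mcm7), their loading and activation factors (Cdc6, Cdc45, Gins2), the sliding clamp Pcna and the enzymes of nucleotide supply (Tyms, Rrm1, Rrm2, Dut). The mitosis genes are held off in resting cells by the DREAM complex, which sits on CHR elements, and are switched on later with help from MuvB, B-MYB, FOXM1 and the CCAAT-binding factor NF-Y. They encode the kinase Cdk1 and its cyclins (Ccna2, Ccnb1, Ccnb2), spindle and kinetochore proteins (Tpx2, Cenpe, Cenpf, Kif11), checkpoint kinases (Bub1, Ttk, Plk1, Aurka, Aurkb) and Top2a, which untangles the copied chromosomes. In a tumour, clonally expanding T cells and some macrophages and dendritic cells divide locally, whereas mature neutrophils have left the cell cycle.

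The promoters of the members carry these regulatory letters unequally, and 5 are shown. The results below set members that were read in mature neutrophils apart from the other members. Sequences are from RefSeq on GRCm38.p6, span 250 bases before to 50 after the annotated start, and run 5′ to 3′ on the strand of the gene. Capitals mark a match, on either strand, to an E2F motif (TTTCCCGC, TTTCGCGC, TTTGCCGC or TTTGGCGC), a CHR element (TTTGAA or TTCGAA) or a CCAAT box (CCAAT); neighbouring matches can overlap. Mcm6 (chr1:128359656-128359955, minus strand) was chosen after its values were seen. Slbp (chr5:33652525-33652824, minus strand) and Dut (chr2:125247265-125247564, plus strand) are the replication genes with a promoter entry that had the most UMIs. Cenpa (chr5:30666636-30666935, plus strand) and Top2a (chr11:99024140-99024439, minus strand) are the same for mitosis.
Mcm6: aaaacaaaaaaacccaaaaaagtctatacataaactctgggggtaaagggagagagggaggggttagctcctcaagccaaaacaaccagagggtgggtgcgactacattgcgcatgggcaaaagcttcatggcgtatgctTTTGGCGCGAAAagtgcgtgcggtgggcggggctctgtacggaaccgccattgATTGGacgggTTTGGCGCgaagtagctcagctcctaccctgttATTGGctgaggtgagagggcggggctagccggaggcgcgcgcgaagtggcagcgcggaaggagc
Slbp: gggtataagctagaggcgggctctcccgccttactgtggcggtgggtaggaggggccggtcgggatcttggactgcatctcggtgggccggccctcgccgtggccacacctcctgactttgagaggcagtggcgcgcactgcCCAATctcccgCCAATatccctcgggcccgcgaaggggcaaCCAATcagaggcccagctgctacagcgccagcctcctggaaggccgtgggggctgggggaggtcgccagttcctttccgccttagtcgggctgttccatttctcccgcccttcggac
Dut: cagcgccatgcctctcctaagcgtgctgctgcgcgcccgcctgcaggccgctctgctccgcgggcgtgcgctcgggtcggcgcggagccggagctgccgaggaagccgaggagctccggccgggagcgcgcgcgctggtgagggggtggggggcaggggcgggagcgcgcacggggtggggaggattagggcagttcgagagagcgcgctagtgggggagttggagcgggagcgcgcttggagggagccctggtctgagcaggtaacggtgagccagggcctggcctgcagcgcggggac
Cenpa: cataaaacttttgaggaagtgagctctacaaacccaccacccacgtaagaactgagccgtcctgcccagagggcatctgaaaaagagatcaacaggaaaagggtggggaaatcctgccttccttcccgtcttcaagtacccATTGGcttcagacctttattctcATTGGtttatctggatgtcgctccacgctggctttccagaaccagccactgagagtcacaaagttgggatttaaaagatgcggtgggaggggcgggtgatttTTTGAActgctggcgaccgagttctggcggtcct
Top2a: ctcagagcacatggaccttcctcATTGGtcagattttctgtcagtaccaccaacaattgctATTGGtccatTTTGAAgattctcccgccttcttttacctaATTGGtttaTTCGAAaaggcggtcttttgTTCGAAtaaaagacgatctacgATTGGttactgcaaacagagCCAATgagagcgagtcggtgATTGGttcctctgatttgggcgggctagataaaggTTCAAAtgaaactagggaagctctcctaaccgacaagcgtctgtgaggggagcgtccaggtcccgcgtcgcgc

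The Mcm6 window held 3 E2F matches and 2 CCAAT boxes, and the Top2a window 4 CHR matches and 6 CCAAT boxes. In the Slbp window only CCAAT boxes (3) were found, and in the Dut window none of these letters. The Dut window begins past the GENCODE M21 start of the gene (125247190) and lies inside the gene by that annotation. It therefore says nothing about letters before that start. Promoter entries existed for 37 of the 44 members. An E2F match was present in 6 of 16 replication genes (37.5%: Mcm3, Mcm5, Mcm6, Mcm7, Cdc6 and Uhrf1) and in 1 of 21 mitosis genes (4.76%: Cdk1), against 2.61% of all 27025 genes with an entry. A CHR element and a CCAAT box occurred together in 16 of 21 mitosis genes (76.2%) and in 3 of 16 replication genes (18.8%), against 8.61% of all genes. These are matches of letters in 300 bases and not measured binding.

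Read levels showed that the list holds genes of differing specificity, and this determined how it could be used. Of all UMIs of Nusap1, a spindle assembly protein, 91.5% lay in the labels Ki67+ CD8+ T cells and Monocytic DCs, the pair of labels whose cells were nearly all dividing. The same share was 84.8% for Top2a, 80.8% for Mki67, the antigen of the Ki-67 proliferation stain, and 77.1% for Stmn1, a microtubule destabiliser. It was lower for most replication genes (34.8% for Mcm6, 30.8% for Pcna, 30.0% for Mcm4). The lowest share, 21.4%, was that of Slbp, the histone mRNA binding protein. Both labels were drawn by clustering on genes that include these members, so the shares describe the labels and test nothing.

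**Figure D1:**
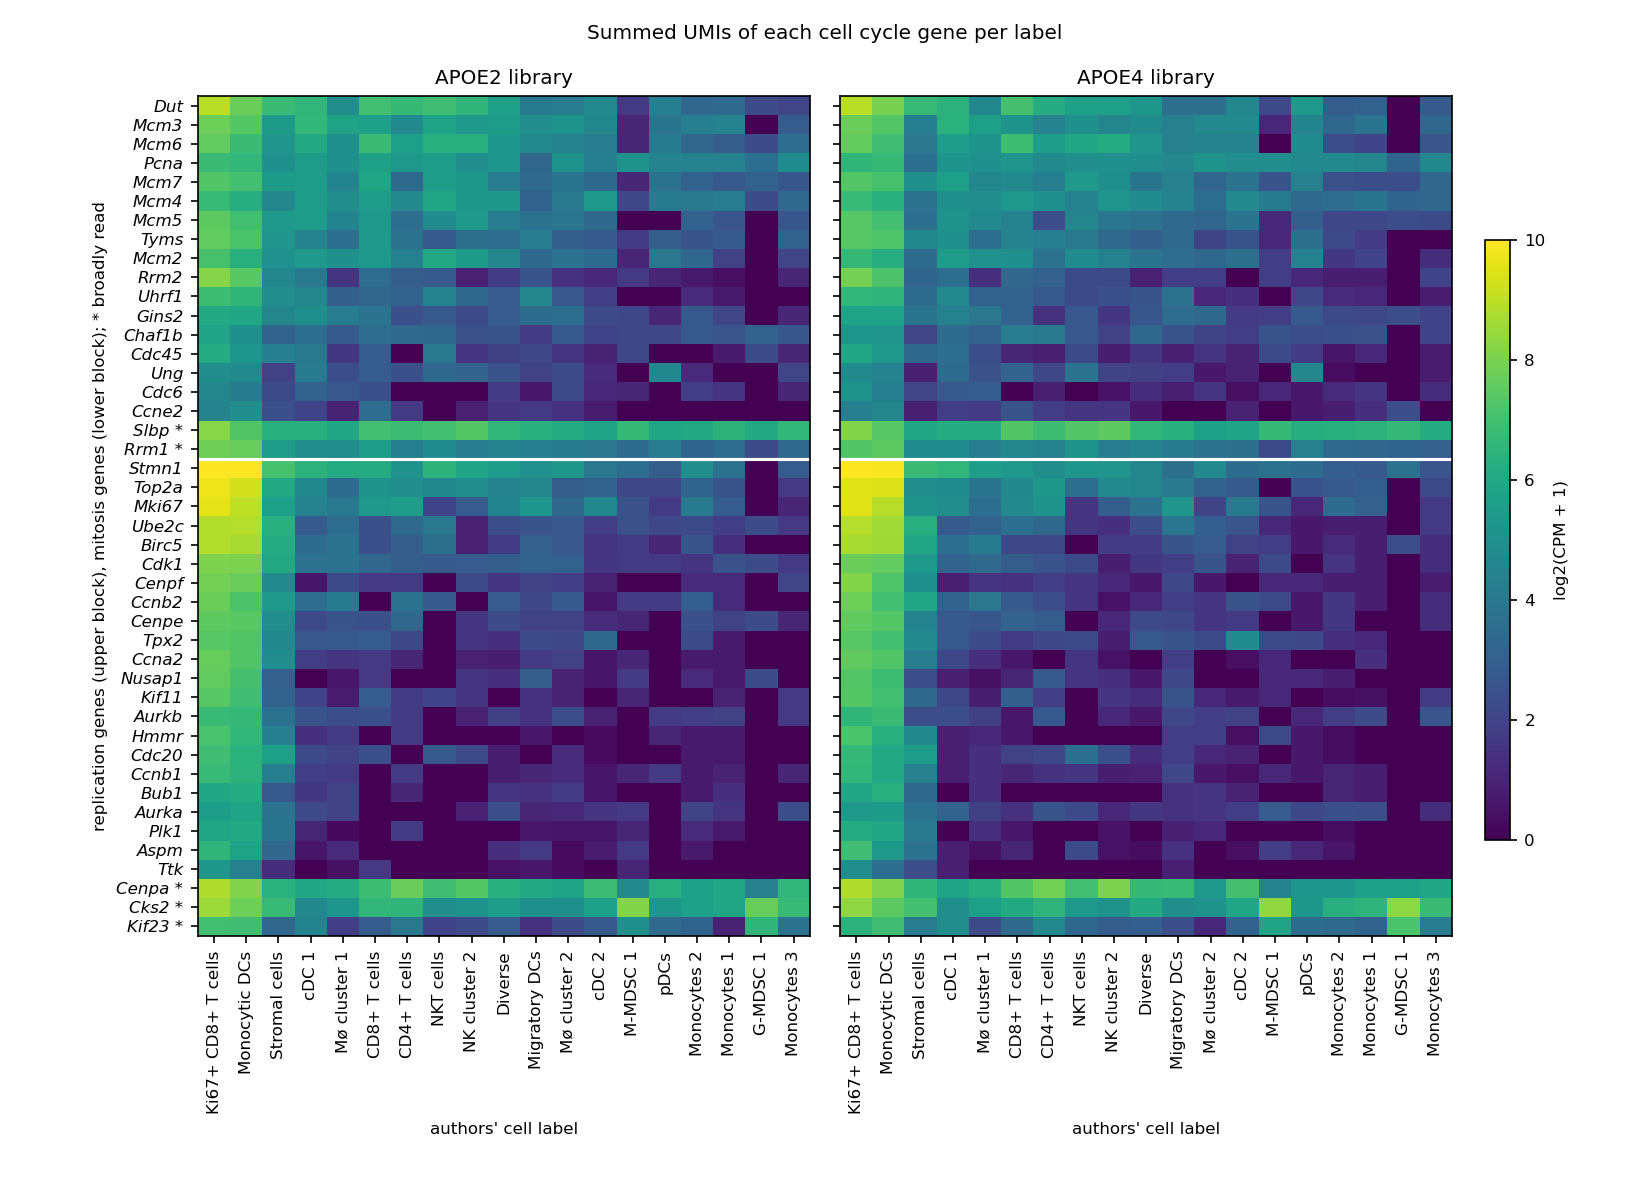
Summed UMIs of each of the 44 members (rows) in each label with at least 50 cells in both libraries (columns, ordered by the share of core-positive cells), as log2(CPM + 1), APOE2 left and APOE4 right; asterisks mark broadly read genes. Most mitosis genes are bright only in the leftmost columns, while Slbp, Cenpa and Cks2 are bright across the row.

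Mature neutrophils served as the cells that should lack a division programme. The label G-MDSC 1 carried 138154 and 139536 CPM of the neutrophil marker list and 73.0 and 82.6 CPM of the early neutrophil list. In it, with 203 thinned cells in both libraries and a median of 1704 and 1782 UMIs per cell before thinning, 5 members had a thinned UMI in at least 1% of cells. They were Cks2, a small subunit of cyclin-dependent kinases, in 49 cells (24.1%), Kif23, a kinesin of cytokinesis, in 30 cells (14.8%), Slbp in 26 (12.8%), Cenpa, the centromeric histone, in 7 (3.45%) and Rrm1, the large subunit of ribonucleotide reductase, in 3 (1.48%). Just below that limit were Pcna and Stmn1, each in 2 cells (0.985%), and no G-MDSC 1 cell had a thinned UMI of Mki67 or Top2a. The remaining 17 replication and 22 mitosis genes are called the core, and a cell is called core-positive when it held at least 3 thinned UMIs of either core subset. The split rests on G-MDSC 1 cells only. It does not follow the share of UMIs inside the labels Ki67+ CD8+ T cells and Monocytic DCs. That share was 57.0% for Rrm1, 59.3% for Kif23, 30.2% for Cenpa and 30.3% for Cks2, against 30.8% for Pcna and 30.0% for Mcm4 of the core. No G-MDSC 1 cell was core-positive, 0 of 100 in APOE2 and 0 of 103 in APOE4, which follows largely from the rule, since the core was chosen on these same cells; with all 25 mitosis genes, 4 and 12 of these cells would have been counted as positive.

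**Figure D2:**
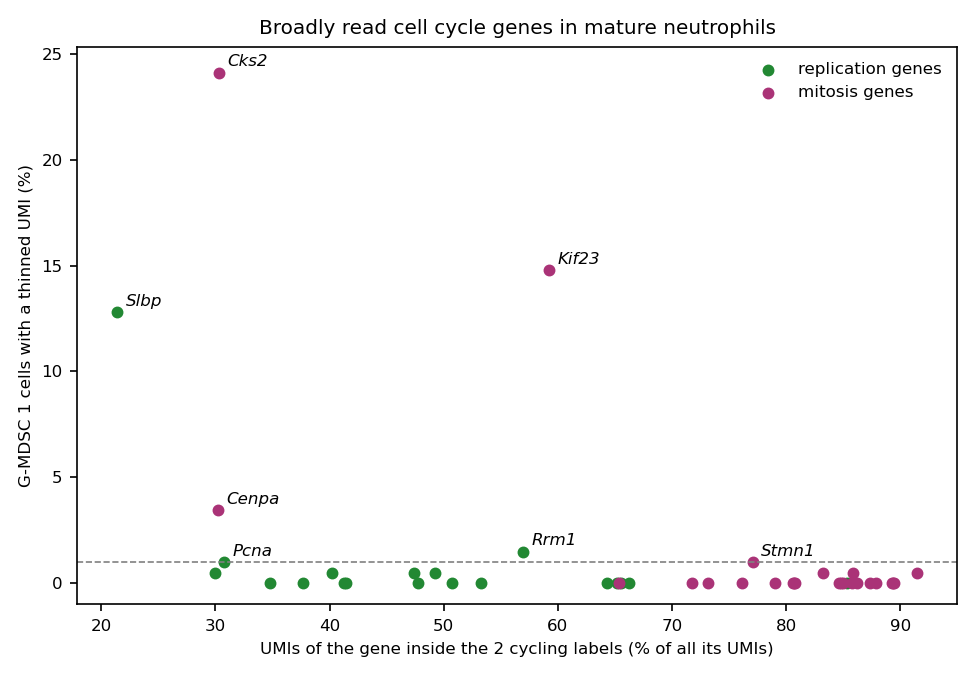
Each point is 1 member, with the percent of its UMIs inside the labels Ki67+ CD8+ T cells and Monocytic DCs on the x axis and the percent of 203 thinned G-MDSC 1 cells with a UMI on the y axis. Cks2, Kif23 and Slbp stand far above the other members.

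The broadly read genes had their own pattern in the neutrophil-marked labels. Cks2 was read in 18% of G-MDSC 1 cells in APOE2 and 30.1% in APOE4, and its summed level was 204 CPM and 314 CPM (ratio APOE4/APOE2 1.54, 95% interval 1.07 to 2.23). Kif23 in the same cells was at 92.2 CPM and 145 CPM (ratio 1.57, 0.907 to 2.76), an interval that includes 1. M-MDSC 1, which by its name is monocytic, held 44916 and 39850 CPM of the neutrophil marker list and 241 and 701 CPM of the monocyte list. There Kif23 was at 31.7 CPM in APOE2 and 56.4 CPM in APOE4 (1.78, 1.08 to 2.96), and Cks2 at 283 and 333 CPM. No core-positive cell was found among 308 M-MDSC 1 cells of APOE2, and 2 were found among 282 of APOE4.

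Over all annotated cells, core-positive cells were a smaller share of the APOE4 library. Core-positive cells were 398 of 4317 in APOE2 (9.22%, exact interval 8.37% to 10.1%) and 279 of 5045 in APOE4 (5.53%, 4.92% to 6.20%), a ratio of 0.600 (0.518 to 0.695). The core replication set alone was reached by 4.91% and 3.19% of cells and the core mitosis set by 6.58% and 3.69%. With the broadly read genes included, 6.35% and 5.07% of cells were positive for replication genes (ratio 0.799, 0.678 to 0.943) and 8.18% and 6.24% for mitosis genes (0.764, 0.660 to 0.884). Without thinning, where the deeper APOE2 cells have more chances, 23.0% and 17.8% of cells reached the core replication limit and 13.8% and 8.12% the core mitosis limit. The limit of 3 UMIs cuts a falling distribution: 186 and 236 cells had exactly 2 core replication UMIs and 79 and 73 had exactly 3. For core mitosis the same counts were 76 and 60 with 2, and 35 and 20 with 3.

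The mix of labels differs between the libraries and moves with this value. When each label was given its mean share of both libraries, the core-positive shares were 8.06% and 6.92% (ratio 0.858), and for the full mitosis set the direction turned (log2 ratio 0.056 against -0.39). Among cells with less than 5% mitochondrial UMIs the core-positive shares were 7.46% and 5.23% (0.701). Outside the labels Ki67+ CD8+ T cells and Monocytic DCs, 134 of 4034 cells (3.32%) and 103 of 4851 (2.12%) were core-positive (0.639, 0.496 to 0.824), and that ratio was 0.913 at a limit of 2 UMIs and 0.776 (0.570 to 1.06) below 5% mitochondrial UMIs. What part the mix of labels or cell quality plays in the remaining difference was not tested.

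By level, the core genes shifted together by modest amounts. The summed core replication genes stood at 453 CPM in APOE2 and 385 CPM in APOE4 (ratio 0.850, 0.831 to 0.869), and the core mitosis genes at 812 CPM and 584 CPM (0.719, 0.707 to 0.732). A gene is counted as past 1.5-fold when it has at least 20 UMIs over both libraries and a CPM ratio of at least 1.5 or at most 1/1.5. Among all genes measured that way 10.3% were higher and 9.75% lower in APOE4. Of the core replication genes 0 of 17 were higher and 1 was lower, and of the core mitosis genes 0 of 22 were higher and 4 were lower, so the counts past the limit were near the background. The median log2 ratio was -0.34 for core replication and -0.47 for core mitosis genes, against 0.02 for all genes, and 16 of 17 and 22 of 22 were below 0. These levels are over all cells and also move with the mix of labels, whose part was not tested.

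Single members differed in how far they moved over all cells. Among replication genes, Slbp was at 91.5 CPM in APOE2 and 103 CPM in APOE4, Dut, which clears dUTP, at 66.7 and 65.7 CPM, and the helicase subunit Mcm3 at 53.4 and 40.0 CPM (0.749). Gins2, a subunit of the helicase activator GINS, was the replication gene past 1.5-fold, at 16.7 and 10.9 CPM (0.650). Among mitosis genes Stmn1 was at 175 and 123 CPM (0.702), Cenpa at 109 and 122 CPM (1.12) and Top2a at 99.2 and 81.6 CPM (0.822). The genes furthest below 1 were Cdk1, the kinase that starts mitosis, at 42.7 and 23.6 CPM (0.553), the spindle checkpoint kinase Ttk at 3.11 and 1.80 CPM (0.581) and cyclin B1 (Ccnb1) at 13.8 and 8.88 CPM (0.642). Of all UMIs of Cdk1, 79.0% lay in the labels Ki67+ CD8+ T cells and Monocytic DCs. Cdk1 was at 266 and 216 CPM inside the Ki67+ label and at 261 and 193 CPM inside Monocytic DCs. The all-cell values therefore also move with the mix of labels. Pclaf, a PCNA-binding protein listed as 2810417H13Rik, was at 88.1 and 69.3 CPM (0.787). UMIs from 3′ ends are not scaled by length, so levels are compared within a gene only. For orientation in the genome (GRCm38, GENCODE M21), Stmn1 lies on chromosome 4 (134468320 to 134473843, plus strand), Mcm3 on chromosome 1 (20802968 to 20820312, minus strand) and Mki67 on chromosome 7 (135689784 to 135716361, minus strand).

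Most core-positive cells sat in the labels Monocytic DCs and Ki67+ CD8+ T cells, in differing proportions. In APOE2 Monocytic DCs held 213 of the 398 core-positive cells (53.5%) and Ki67+ CD8+ T cells 51 (12.8%); in APOE4 they held 106 of 279 (38%) and 70 (25.1%). Together the labels held 66.3% and 63.1%. The monocyte and macrophage labels held 10.1% and 5.02% of core-positive cells, the T labels 4.77% and 13.3%, stromal cells 5.03% and 3.94%, and the NK labels 3.27% and 4.30%. Since the labels were drawn on these genes, their sizes are given as a description of where the members were read.

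Markers did not bear out the full name of either label. In the label Ki67+ CD8+ T cells, the CD8 list (Cd8a, Cd8b1) summed to 55.1 CPM in APOE2 and 644 CPM in APOE4, and at least 2 thinned CD8 UMIs were found in 1 of 51 cells (1.96%) and 21 of 74 (28.4%). In the label CD8+ T cells the same share was 28.8% and 72.0%. At least 3 thinned UMIs of the T cell list were found in 20 of 51 and 39 of 74 cells of the Ki67+ label, of the CD4 list in 12 and 9, of the NK list in 6 and 22, and none of the T cell, NK, early neutrophil or macrophage lists in 25 and 13. In the APOE2 library the label is therefore named here by the authors' word only. The label Monocytic DCs carried macrophage markers in 167 of 232 cells (72.0%) in APOE2 and 57 of 120 (47.5%) in APOE4, cDC2 markers in 25.9% and 10.8%, and monocyte markers in 9.05% and 37.5%. The monocyte list was also met more often in APOE4 in the label CD8+ T cells (36.9% and 60.8%) and in the Ki67+ label (15.7% and 37.8%).

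Inside these labels the summed core levels differed by less than 10% between the libraries. In Monocytic DCs the core replication genes were at 1595 CPM in APOE2 and 1640 CPM in APOE4 (1.03) and the core mitosis genes at 5029 and 4630 CPM (0.921). For example Stmn1 was at 998 and 943 CPM, Top2a at 636 and 708 CPM and Mki67 at 521 and 488 CPM. Among replication genes Dut was at 213 and 254 CPM, Rrm1 at 205 and 185 CPM and Rrm2, the regulated subunit of ribonucleotide reductase, at 171 and 148 CPM. The exception past 1.5-fold was Ttk, at 19.4 and 11.5 CPM (0.593), 1 gene of 22 against a background of 9.97% lower and 8.09% higher. In Ki67+ CD8+ T cells the core ratios were 0.916 (replication) and 0.932 (mitosis), with Stmn1 at 1347 and 1186 CPM, Top2a at 857 and 732 CPM and Mki67 at 773 and 743 CPM. There 1 of 17 core replication genes, the chromatin assembly subunit Chaf1b (0.652), was lower past 1.5-fold and none of 22 core mitosis genes was past it, against a background of 12.1% higher and 9.73% lower.

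These labels were also set against each other within a library, member by member. In both libraries 4 replication genes (Mcm6, Rrm2, Dut and Slbp) and 4 mitosis genes (Cenpa, Aspm, Ttk and Cks2) were at least 1.5-fold higher in Ki67+ CD8+ T cells than in Monocytic DCs. The ratio was 2.35 in APOE2 and 1.96 in APOE4 for Dut, and 1.71 and 2.95 for Aspm, a spindle pole protein. None of the 44 members was 1.5-fold higher in Monocytic DCs in both libraries. The share of all genes past 1.5-fold between these labels was not computed, so the counts describe the members without a background. The split of core-positive cells by programme was as follows: replication only, mitosis only and both accounted for 13.1%, 57.3% and 29.6% of core-positive Monocytic DCs in APOE2 and 14.2%, 53.8% and 32.1% in APOE4. In Ki67+ CD8+ T cells the same shares were 13.7%, 39.2% and 47.1% in APOE2 and 12.9%, 44.3% and 42.9% in APOE4. No phase per cell was used here, and these states are counts of UMIs and not phase calls.

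**Figure D3:**
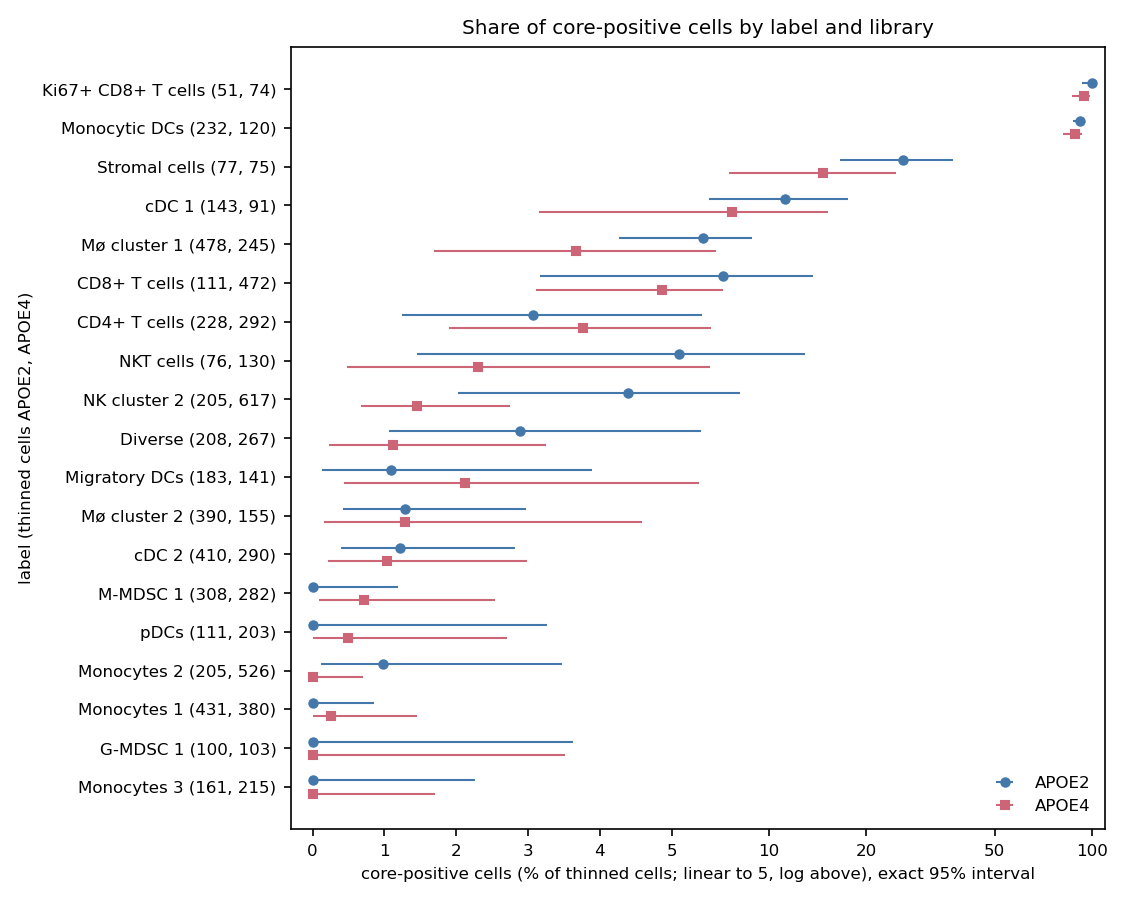
Percent of thinned cells that were core-positive (x axis, linear to 5 and logarithmic above) in each label with at least 50 cells in both libraries (y axis, with the number of thinned cells), APOE2 circles and APOE4 squares, with exact 95% intervals. Below the topmost pair of labels, stromal cells, cDC 1, Mø cluster 1 and CD8+ T cells had the highest shares, and most pairs of intervals overlap.

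Outside these labels the share of core-positive cells depended first on the cell type. Mast cells had 11 of 38 in APOE2 (28.9%) and 7 of 21 in APOE4 (33.3%), and the label Stromal cells 20 of 77 (26.0%) and 11 of 75 (14.7%). Among cells carrying the stromal marker list, whatever their label, 10 of 72 (13.9%) and 11 of 74 (14.9%) were core-positive. That ratio was 1.07 (0.485 to 2.36), so the label difference was not met in marked cells. In APOE2 the core-positive cells of the label had a median of 9738 UMIs and 2.71% mitochondrial UMIs. Its other cells had 18790 and 5.41%. Among dendritic cells the cross-presenting cDC 1 had 16 of 143 (11.2%) and 7 of 91 (7.69%), cDC 2 had 5 of 410 and 3 of 290, and plasmacytoid cells (pDCs) 0 of 111 and 1 of 203. Among lymphocytes CD8+ T cells had 8 of 111 (7.21%) and 23 of 472 (4.87%), CD4+ T cells 7 of 228 (3.07%) and 11 of 292 (3.77%), and NK cluster 2 had 9 of 205 (4.39%) and 9 of 617 (1.46%). Mø cluster 1 had 30 of 478 (6.28%) and 9 of 245 (3.67%), Mø cluster 2 had 5 of 390 (1.28%) and 2 of 155 (1.29%), and the 3 monocyte labels together had 2 and 1 core-positive cells. In both libraries monocytes and pDCs were near 0. G-MDSC 2, whose 28 thinned cells in each library all carried the neutrophil list, had 2 core-positive cells in each (7.14%).

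Core-positive cells outside the labels Ki67+ CD8+ T cells and Monocytic DCs were mostly read in the replication programme. Replication only made up 59.0% of them in APOE2 and 67.0% in APOE4, and both programmes 8.21% and 3.88%. In NK cells 12 of 13 and 10 of 12 core-positive cells were replication only, and in T labels 13 of 19 and 30 of 37. Stromal and mast cells were the other way round, with 14 of 20 and 9 of 11 stromal, and 7 of 11 and 4 of 7 mast cells in mitosis only. Core-positive cells had more UMIs before thinning than the other cells of their label in 16 of 19 pairs of label and library. An example is mast cells of APOE2, at 9571 against 4855. Over all cells of the label CD8+ T cells the core replication genes were at 635 CPM in APOE2 and 516 CPM in APOE4. Over all NK cells they were at 472 and 300 CPM. Whether a low level spread evenly over the cells of a label would give the replication-only counts was not tested. These counts alone do not show that the cells were dividing.

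Monocytes and macrophages had a smaller share of core-positive cells and lower levels of both programmes in APOE4. The label Skin resident Mø was left out of this group after the data were seen, because its 10 leading genes hold 1 marker of another class (Mmp9, of the neutrophil list) and 0 of its own. Mø cluster 2 and Monocytes 2 also hold 0 of their own, but none of another class, and were kept. This rule does not decide which cells the label Skin resident Mø holds, and they may be macrophages as named. The 47 and 8 annotated cells of Skin resident Mø did not share the direction of the group, with core replication genes at 302 and 691 CPM (2.29, 1.86 to 2.80), core mitosis genes at 150 and 214 CPM (1.42, 0.990 to 2.01) and 3 of 45 and 2 of 8 thinned cells core-positive. In the other 5 labels 37 of 1665 cells (2.22%) were core-positive in APOE2 and 12 of 1521 (0.789%) in APOE4 (ratio 0.355, 0.186 to 0.678), and with Skin resident Mø 2.34% and 0.916% (0.391, 0.214 to 0.717). In the 5 labels the interval reached past 1 among cells below 5% mitochondrial UMIs (1.23% and 0.737%, 0.597, 0.269 to 1.32), at a depth of 1000 UMIs (1.01% and 0.458%, 0.452, 0.188 to 1.09) and at a limit of 5 UMIs (0.547, 0.188 to 1.60). The core replication genes summed to 205 CPM and 143 CPM (0.696, 0.655 to 0.738) and the core mitosis genes to 117 CPM and 67.4 CPM (0.578, 0.532 to 0.629). Mø cluster 1, the label of this group with the highest share of core-positive cells, was 478 of the 1665 thinned cells in APOE2 and 245 of 1521 in APOE4, which moves with the pooled value. Of the core replication genes 0 of 17 were higher and 9 lower past 1.5-fold, and of the core mitosis genes 0 of 18 measured were higher and 12 lower, against a background of 7.82% higher and 13.4% lower. Their median log2 ratios were -0.60 and -0.74, against -0.06 for all genes.

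Among the replication genes of these 5 labels, Slbp was at 72.3 CPM in APOE2 and 73.4 CPM in APOE4 and the clamp Pcna at 28.6 and 27.5 CPM, ratios of 1.02 and 0.961. Mcm3 was at 35.4 and 21.2 CPM (0.598, 0.513 to 0.696), and its partner Mcm2 at 16.4 and 9.80 CPM (0.597). Thymidylate synthase (Tyms) was at 8.30 and 4.48 CPM (0.540), and the uracil DNA glycosylase Ung, which had 60 UMIs in all, at 2.97 and 1.25 CPM (0.420). Among the mitosis genes Stmn1 was at 41.5 and 17.4 CPM (0.421, 0.358 to 0.493). Cdk1 was at 8.04 and 3.74 CPM (0.465) and the kinetochore protein Cenpf at 2.64 and 0.996 CPM (0.378). Cenpa was at 63.1 and 51.6 CPM (0.818). The broadly read Cks2 and Kif23 went the opposite way, at 45.2 and 71.2 CPM (1.58, 1.42 to 1.75) and at 3.89 and 7.97 CPM (2.05, 1.47 to 2.88). With them, the full mitosis set had a ratio of 0.866 in these labels.

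Taken label by label, the difference was not uniform. In Mø cluster 1 the core replication genes were level, at 307 CPM in APOE2 and 313 CPM in APOE4 (1.02), while the core mitosis genes were at 186 and 146 CPM (0.785, 0.696 to 0.884). There Stmn1 was at 70.2 and 46.0 CPM (0.655, 0.529 to 0.807), Mcm3 at 53.9 and 51.0 CPM and Rrm1 at 28.8 and 18 CPM (0.626). Slbp was at 63.4 and 71.4 CPM, Mcm6 at 31.4 and 35.3 CPM, Cenpa at 71.0 and 74.8 CPM and Cks2 at 37.4 and 49.5 CPM (1.33). The share of core-positive cells in this label (ratio 0.585) had an interval of 0.282 to 1.21, so its difference lay within counting error. In Mø cluster 2 both core sets were lower, at 205 and 153 CPM for replication (0.748, 0.646 to 0.862) and 104 and 75.3 CPM for mitosis (0.724). In Monocytes 2, where only 2 core-positive cells were found, core replication was at 118 and 83.2 CPM (0.704) and core mitosis at 94.1 and 45.1 CPM (0.479, 0.382 to 0.600).

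Members past 1.5-fold in these labels were counted against each label's own background. In Mø cluster 1 they were 1 higher and 0 lower of 15 core replication genes and 0 higher and 6 lower of 14 core mitosis genes (background 8.94% higher, 9.54% lower). In Mø cluster 2 they were 0 higher and 5 lower of 12, and 0 higher and 5 lower of 9 (background 7.80% and 8.53%). In Monocytes 2 they were 0 higher and 6 lower of 11, and 0 higher and 2 lower of 4 (background 6.73% and 10.5%). Across the 17 labels with at least 50 cells in both libraries, the labels Ki67+ CD8+ T cells and Monocytic DCs left out, the core replication ratio was below 1 in 13 and its interval wholly below 1 in 9. For core mitosis the counts were 11 and 9. The interval lay wholly above 1 for core replication in pDCs and for core mitosis in cDC 2. With all members the mitosis ratio was below 1 in 8 of the 17 and above 1 in 9, its interval wholly below 1 in 3 and wholly above 1 in 4, and for replication the ratio was below 1 in 13 and the interval in 9.

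NK cells were lower in the replication programme in APOE4. Core-positive cells were 13 of 238 (5.46%) in APOE2 and 12 of 729 (1.65%) in APOE4 (0.301, 0.139 to 0.651). Core replication genes were at 472 and 300 CPM (0.635, 0.573 to 0.704), and core mitosis genes at 123 and 87.2 CPM (0.711, 0.582 to 0.870). With the broadly read genes the mitosis ratio turned to 1.20, and of these Cenpa was at 170 CPM in APOE2 and 267 CPM in APOE4 (1.57, 1.35 to 1.83). The helicase subunits Mcm5 at 43.1 and 14.5 CPM (0.337), Mcm2 at 47.7 and 20.5 CPM (0.429) and Mcm3 at 42.4 and 20.5 CPM (0.483) were furthest below 1. Dut was at 93.9 and 48.2 CPM (0.514), Stmn1 at 61.3 and 33.7 CPM (0.549), Mcm6 at 87.8 and 71.7 CPM and Slbp at 163 and 180 CPM. Cks2 was at 31.0 and 32.4 CPM. Of the core replication genes 0 of 11 measured were higher and 6 lower past 1.5-fold, against a background of 10.8% higher and 6.93% lower.

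The NK difference rested on few cells and was smaller among cells with fewer mitochondrial UMIs. Among cells with less than 5% mitochondrial UMIs the core-positive shares were 2.47% and 1.90% (0.769, 0.251 to 2.35). In NK cluster 2 the core-positive cells of APOE2 had a median of 8649 UMIs and 5.26% mitochondrial UMIs against 4609 and 4.46% in the other cells, while in APOE4 they had 3481 and 3.67% against 3861 and 3.89%. The part of these quantities in the difference was not tested. For the summed level of all 19 replication genes in NK cells, the log2 ratio was -0.27 below 5% mitochondrial UMIs and -0.39 in all NK cells.

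**Figure D4:**
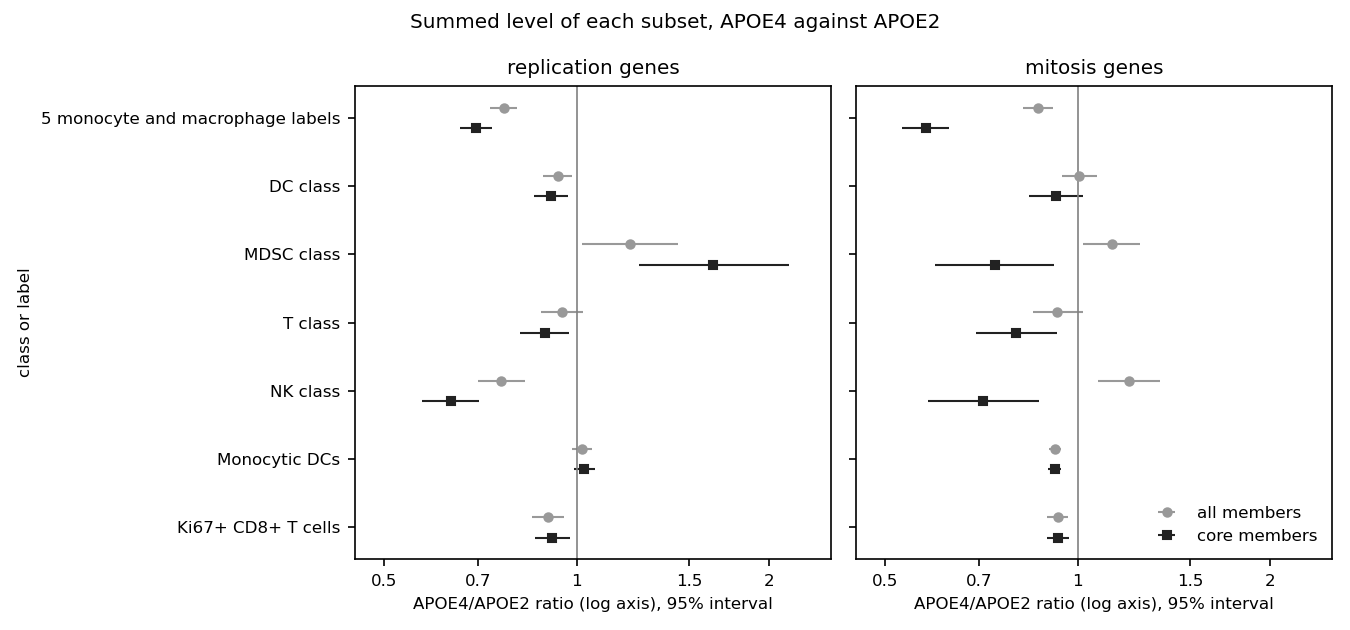
Ratio APOE4/APOE2 of summed CPM (log axis) with its 95% counting interval, for the replication genes (left) and mitosis genes (right), in 5 monocyte and macrophage labels together, 4 further classes and the labels Monocytic DCs and Ki67+ CD8+ T cells; grey circles use all members and black squares the core. The mitosis ratios of the MDSC and NK classes lie above 1 with all members and below 1 with the core.

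In T cells the shares differed by less than counting error. Core-positive cells were 19 of 415 (4.58%) in APOE2 and 37 of 894 (4.14%) in APOE4 (0.904, 0.526 to 1.55), an interval that leaves room for a difference in either direction. Core replication genes were at 462 and 411 CPM (0.891, 0.816 to 0.973) and core mitosis genes at 177 and 142 CPM (0.801, 0.693 to 0.927). Both of these level intervals lay wholly below 1. Slbp was at 122 and 144 CPM, Dut at 113 and 98.5 CPM and Mcm6 at 71.8 and 86.0 CPM. Cenpa was at 167 and 176 CPM, Cks2 at 80.7 and 70.5 CPM, Stmn1 at 54.6 and 35.7 CPM (0.653) and Kif23 at 10.1 and 15.3 CPM (1.52). Past 1.5-fold were 0 higher and 1 lower of 15 core replication genes and 0 higher and 3 lower of 9 core mitosis genes (background 7.89% higher, 8.82% lower). Within the label CD8+ T cells the helicase subunit Mcm7 was at 57.2 and 25.7 CPM (0.450), Tyms at 41.8 and 20.7 CPM (0.495), Rrm1 at 46.2 and 23.5 CPM (0.508) and Mki67 at 39.6 and 25.7 CPM (0.649). There 4 of 12 core replication genes were lower and 1 higher, against a background of 11.1% lower and 12.9% higher. This label did not hold like cells in both libraries. CD8-marked cells were 28.8% of it in APOE2 and 72.0% in APOE4, and CD4-marked cells 33.3% and 15.3%. The part of that mix in these ratios was not tested. In NKT cells core replication was at 578 and 338 CPM (0.584, 0.474 to 0.719), with 0 higher and 5 lower of 8 measured genes (background 13.7% higher, 9.58% lower).

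Dendritic cells had core set ratios a little below 1, with single members on either side. Core-positive cells were 23 of 847 (2.72%) in APOE2 and 14 of 725 (1.93%) in APOE4 (0.711, 0.369 to 1.37). The core sets were at 273 and 249 CPM (0.912, 0.857 to 0.970) for replication and 111 and 103 CPM (0.925, 0.840 to 1.02) for mitosis. Cdk1 was at 5.48 and 2.10 CPM (0.384) and Rrm2 at 5.03 and 2.52 CPM (0.502), whereas Tpx2, which activates Aurora A on the spindle, was at 6.37 CPM in APOE2 and 14.6 CPM in APOE4 (2.29, 1.64 to 3.22). Slbp was at 65.6 and 67.6 CPM, Mcm3 at 39.9 and 33.0 CPM, Cenpa at 89.3 and 92.3 CPM and Stmn1 at 32.8 and 24.7 CPM. Past 1.5-fold were 0 higher and 2 lower of 17 core replication genes and 3 higher and 2 lower of 13 core mitosis genes (background 10.7% higher, 7.28% lower). With so few genes these counts do not set the members apart from all genes. In cDC 1, the DC label with the most core-positive cells, Dut was at 95.4 and 85.9 CPM, Mcm3 at 96.4 and 81.6 CPM and Stmn1 at 85.6 and 95.4 CPM. There Gins2 was at 30.3 and 19.8 CPM (0.653) and Tyms at 21.0 and 31.8 CPM (1.51), among 1 higher and 2 lower of 16 core replication genes (background 8.65% higher, 8.93% lower).

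Plasmacytoid cells had a higher level of the core replication genes in APOE4. Their core replication genes were at 150 CPM in APOE2 and 228 CPM in APOE4 (1.51, 1.24 to 1.86), with 5 of 9 measured genes higher past 1.5-fold and 1 lower, against a background of 10.5% higher and 6.81% lower. Dut was at 19.1 and 41.8 CPM (2.19, 1.28 to 3.97) and Mcm6 at 16.8 and 27.1 CPM (1.61), while Cenpa was at 75.2 and 37.7 CPM (0.501, 0.350 to 0.716). Only 1 pDC of 314 in both libraries was core-positive.

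Stromal and mast cells had high levels of the core mitosis genes. Stromal cells, which the CD45 gate should have removed, carried 12996 and 11731 CPM of the stromal marker list, and their core replication genes were at 512 CPM in APOE2 and 292 CPM in APOE4 (0.570, 0.500 to 0.649). Here 0 of 13 core replication genes were higher and 10 lower past 1.5-fold (background 10.4% higher, 8.78% lower), among them Mcm5 at 40.8 and 11.5 CPM (0.282), Mcm2 at 32.8 and 10.7 CPM (0.326) and Uhrf1, which maintains DNA methylation, at 29.1 and 10.7 CPM (0.367). Core mitosis genes were at 773 and 672 CPM (0.869), with Top2a at 65.5 and 28.8 CPM (0.439, 0.288 to 0.655) and Cdk1 at 66.3 and 41.1 CPM (0.620), while Cks2 was at 105 and 129 CPM. Macrophage markers in these stromal cells summed to 537 CPM in APOE2 and 52.6 CPM in APOE4, and their part in the difference was not tested. In mast cells, with 48 and 24 annotated cells, core replication was at 612 and 1205 CPM (1.97, 1.60 to 2.42) and core mitosis at 2142 and 2053 CPM (0.958).

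In the MDSC labels the direction depended on which members were summed. All 25 mitosis genes gave a ratio of 1.13 (1.02 to 1.25), of which Cks2 was at 246 and 319 CPM and Kif23 at 46.0 and 69.2 CPM (interval of the ratio 1.10 to 2.07). The core mitosis genes, in contrast, were at 137 and 101 CPM (0.741, 0.598 to 0.917). The core replication genes were at 60.5 and 98.8 CPM (1.63, 1.25 to 2.15). Only 3 core replication and 6 core mitosis genes had enough UMIs to be counted, with 2 higher and 0 lower, and 2 higher and 3 lower (background 12.1% higher, 12.5% lower). The small label G-MDSC 2, with 29 and 28 annotated cells, held 18 core replication UMIs in APOE2 and 71 in APOE4. Slbp was at 94.1 and 91.2 CPM, the helicase subunit Mcm4 at 6.18 and 16.4 CPM (2.65) and Stmn1 at 15.8 and 23.9 CPM (1.51). Core-positive cells were 2 of 453 and 4 of 538, too few to order the libraries.

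The genes that control entry into the cycle were taken from a separate list of 46 regulators. Over all cells 1 of 45 measured was higher and 5 were lower past 1.5-fold, close to the background given above. The lower ones were the transcription factors E2f1 (22.3 and 14.2 CPM, 0.638), E2f7 (3.82 and 2.14 CPM, 0.559) and Mybl2, which encodes B-MYB (4.80 and 2.75 CPM, 0.572), the phosphatase Cdc25c (1.93 and 1.28 CPM, 0.663) and the kinase Wee1, which holds Cdk1 inactive (6.73 and 2.83 CPM, 0.421). In the 5 monocyte and macrophage labels 2 of 40 were higher and 8 lower, against a background of 7.82% higher and 13.4% lower. The kinases that phosphorylate the retinoblastoma protein, Cdk4 (70.0 and 41.8 CPM, 0.598) and Cdk6 (57.9 and 34.0 CPM, 0.588), were among the lower genes, with Myc (17.7 and 9.22 CPM, 0.520), Wee1 (6.33 and 1.91 CPM, 0.302) and Cdca8, a subunit of the chromosomal passenger complex (6.79 and 4.23 CPM, 0.624). E2f2 (13.6 and 27.8 CPM, 2.05, 1.72 to 2.45) and the repressor E2f8 (2.97 and 4.90 CPM, 1.65) were higher while E2f1 was lower (23.5 and 14.3 CPM, 0.607).

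In the DC, MDSC, T and NK classes and the labels Ki67+ CD8+ T cells and Monocytic DCs, 2 to 8 regulators per group were past 1.5-fold. Each count is given beside its background. In the T class 2 were higher and 1 lower of 34 (background 7.89% higher, 8.82% lower). Within it, the label CD8+ T cells had 7 higher and 4 lower of 30 (background 12.9% higher, 11.1% lower). In DCs cyclin D1 (Ccnd1) was at 297 CPM in APOE2 and 467 CPM in APOE4 (1.57) and the kinase inhibitor Cdkn2d at 85.5 and 130 CPM (1.52), with Rbl1 (1.54) and Myc (0.664), among 3 higher and 5 lower of 40 (background 10.7% higher, 7.28% lower). In MDSC labels cyclin D2 (Ccnd2) was at 88.6 and 213 CPM (2.40, 1.95 to 2.96) and the p21 gene Cdkn1a at 1949 and 1125 CPM (0.577), among 3 higher and 5 lower of 24 (background 12.1% higher, 12.5% lower). In NK cells Cdc25b, a phosphatase that activates Cdk1, was at 15.9 and 31.7 CPM (1.99) and Rb1 at 15.9 and 26.1 CPM (1.64), among 2 higher and 1 lower of 30 (background 10.8% higher, 6.93% lower). In Ki67+ CD8+ T cells Cdkn1a was at 73.5 and 159 CPM (2.16) and the antiproliferative gene Btg2 at 358 and 549 CPM (1.54), among 4 higher and 2 lower of 40 (background 12.1% higher, 9.73% lower). In Monocytic DCs Ccnd2 was at 110 and 175 CPM (1.59), among 2 higher and 0 lower of 42 (background 8.09% higher, 9.97% lower).

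Cells were also chosen on marker genes alone, at equal depth and whatever their label. Cells with at least 3 thinned UMIs of the macrophage list were core-positive in 206 of 1635 cases (12.6%) in APOE2 and 68 of 944 (7.20%) in APOE4 (0.572, 0.440 to 0.743). Of these positive cells 157 and 51 carried the label Monocytic DCs, so the value rests mainly on that label. Outside Monocytic DCs and Ki67+ CD8+ T cells the shares were 3.21% and 1.58% (0.494, 0.274 to 0.892), and below 5% mitochondrial UMIs 2.23% and 1.54% (0.692, 0.347 to 1.38). Without Apoe, which is a marker in that list and the locus altered in these mice, the shares were 12.8% and 7.56% (0.592, 0.456 to 0.770). The cDC2 list gave 68 of 659 (10.3%) and 12 of 273 (4.40%) (0.426, 0.234 to 0.774), with 51 and 11 of the positive cells in Monocytic DCs, and cells can carry both lists. NK-marked cells gave 21 of 226 (9.29%) and 36 of 822 (4.38%) (0.471, 0.281 to 0.791), and 0.542 (0.290 to 1.01) below 5% mitochondrial UMIs. Outside the same pair of labels they gave 6.39% and 1.75% (0.274, 0.133 to 0.566), and 0.483 (0.187 to 1.25) below 5% mitochondrial UMIs. T-marked cells gave 37 of 441 (8.39%) and 77 of 995 (7.74%) (0.922, 0.633 to 1.34), and monocyte-marked cells 46 of 1436 (3.20%) and 97 of 2800 (3.46%) (1.08, 0.766 to 1.53). The monocyte list does not select monocytes alone: 85.7% and 82.1% of G-MDSC 2 cells met it, besides the CD8+ T cells given above. In macrophage-marked cells below 5% mitochondrial UMIs the ratio was 0.651 (0.460 to 0.921).

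**Figure D5:**
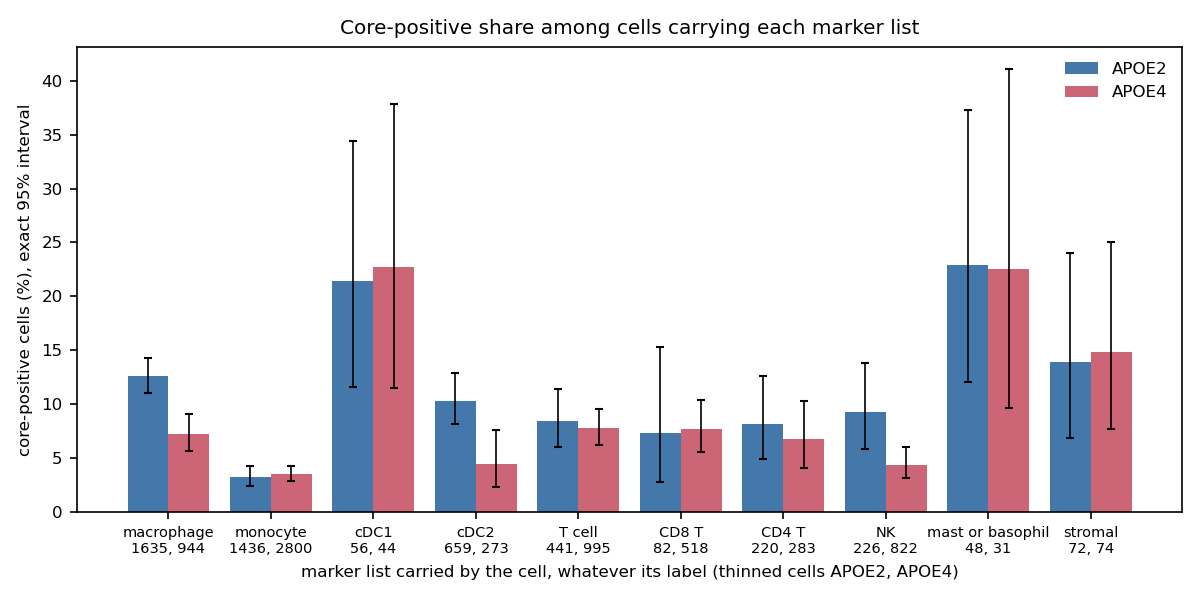
Percent of core-positive cells (bars, from 0) among thinned cells that carry each marker list whatever their label, APOE2 and APOE4 side by side, with exact 95% intervals; numbers under each list are thinned cells. APOE4 is lower among macrophage-marked (12.6% and 7.20%), cDC2-marked and NK-marked cells. The intervals of all pairs except the macrophage-marked and cDC2-marked ones overlap.

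Across the 41 combinations of label and library with at least 50 cells, the members kept pace with their own subset to differing degrees. Spearman's rho with the summed core replication genes was 0.97 for Mcm2 and 0.96 for Dut. Of the broadly read genes it was 0.51 for Slbp and 0.93 for Rrm1. With the summed core mitosis genes it was 0.93 for Stmn1, 0.90 for Top2a, 0.60 for Cenpa, 0.04 for Kif23 and -0.05 for Cks2. Outside the list the genes most alike to core replication, of 11757 genes with at least 100 UMIs, were Prim1, a primase subunit (0.96), the chromatin remodeller Hells (0.96) and the replication fork gene Tipin (0.96). For core mitosis they were Hells (0.90), the DNA ligase Lig1 (0.90) and Cit, a kinase of cytokinesis (0.89). The points share 2 libraries and differ in depth, and the correlations are descriptions.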

How the data were processed

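The values used are the authors' unscaled UMI counts for every gene in every barcode, written by Cell Ranger 3.0.1 per the file headers; the build is mm10 and Seurat 3.0.2 was used, per the submitters' processing notes. The deposited cell table gives the authors' label of each cell, its UMI count (equal to the matrix sum in 2150 and 2733 cells) and its percent of mitochondrial UMIs. The sources used here do not say how labels were assigned, whether strand was used or whether doublets were removed.

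UMIs were summed per label or class and library and given as CPM of all UMIs of those cells, and ratios (APOE4/APOE2) carry exact conditional binomial 95% intervals. Shares carry Clopper-Pearson 95% intervals, and ratios of shares the log-ratio interval. Cells of at least 1500 UMIs were thinned to 1500 (seed 0). Classes join labels by lineage: DC (cDC 1, cDC 2, Migratory DCs, pDCs), MDSC (the G-MDSC and M-MDSC labels), T (CD4+, CD8+, NKT) and NK (both clusters). A count of 0 leaves room for a low share. For 0 of 100 and 0 of 103 G-MDSC 1 cells the upper ends of the exact intervals are 3.62% and 3.52%. The fixed definition used all members; the core, and the lead given to it, were chosen after the data were seen. Members, lists and rules were chosen with earlier results of these data known.

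Values are given for the 3 members of each subset with the most UMIs in a group of cells, and for up to 3 in each direction with at least 50 UMIs that lay furthest past 1.5-fold; regulators are named from 100 UMIs. No p-value was computed. Scrublet (scanpy 1.11.5) marked 4 (0.0857%) and 10 (0.186%) cells, too few to have worked, so doublets were not removed and an alternative left out the 6% of cells with the highest score. Python 3.11.15, numpy 2.4.6, scipy 1.17.1, pandas 2.3.3 and matplotlib 3.10.9 were used, and the ratio code was tested on simulated data. Promoters came from RefSeq and gene positions from GENCODE M21.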

Additional observations from a re-analysis of the deposited data

Results flagged for a closer look

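Barcodes that the authors left out of the annotation also held core-positive cells, at higher shares than the annotated cells of either library (9.22% and 5.53%). Among unannotated barcodes with at least 6000 genes, 12 of 22 in APOE2 (54.5%, exact interval 32.2% to 75.6%) and 10 of 15 in APOE4 (66.7%, 38.4% to 88.2%) were core-positive, or 22 of 37 in both libraries (59.5%, 42.1% to 75.2%). Among those under 6000 genes, all of which had at least 10% mitochondrial UMIs, 26 of 203 in APOE2 (12.8%, 8.54% to 18.2%) and 11 of 96 in APOE4 (11.5%, 5.86% to 19.6%) were core-positive, or 37 of 299 in both (12.4%, 8.86% to 16.7%). These were singled out because no comparison above uses them, and whether they are single cells was not tested.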

How the results depend on the processing

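Each value below is a log2 ratio APOE4/APOE2. Of 219 recomputed values, 171 stayed within the counting interval of the reported value. The sign changed in 24, of which 20 had a reported interval that included 1 and 4 did not. Monocytes and macrophages here are all 6 labels, Skin resident Mø included, unless 5 are named. For the share of cells with replication genes over all cells (-0.32), a limit of 2 UMIs gave -0.034, 5 UMIs -0.80, a depth of 1000 UMIs -0.62, cells under 5% mitochondrial UMIs -0.073 and the core genes -0.62. For mitosis genes (-0.39) the values were -0.091 at 2 UMIs, -0.74 at 5 UMIs, -0.17 without thinning and -0.84 with the core genes, and an equal mix of labels reversed it (0.056). The core-positive share over all cells (-0.74) was -0.36 at 2 UMIs, -0.36 without thinning, -0.51 under 5% mitochondrial UMIs and -0.22 with an equal mix of labels.

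Restricting the sets to core genes, which is what leaving out the broadly read members does, reversed the mitosis level in MDSC (-0.43) and NK cells (-0.49) and the MDSC mitosis share (-0.25). It moved the levels of replication genes in monocytes and macrophages (-0.48), MDSC (0.71) and NK cells (-0.66), of mitosis genes in monocytes and macrophages (-0.76), DCs (-0.11) and T cells (-0.32), and the shares for mitosis in monocytes and macrophages (-1.42) and replication in NK cells (-1.86). Thinning moved replication levels in DCs (-0.012), T (0.055) and NK cells (-0.17), and mitosis levels in DCs (-0.24), MDSC (0.52) and NK cells (0.53). Equal weight per label moved replication levels in monocytes and macrophages (-0.19), DCs (-0.0014), T (-0.28) and NK cells (-0.58). Cells under 5% mitochondrial UMIs gave 0.13 for DC mitosis and -0.27 for NK replication levels. A depth of 1000 UMIs gave -1.13 and -0.59 for the replication shares of DCs and T cells. The core-positive share of T cells was -2.43 at 5 UMIs, and that of NK cells -0.57 at 2 UMIs, -3.20 at 5 UMIs, -0.58 without thinning and -0.38 under 5% mitochondrial UMIs. In the 5 labels the core-positive share (-1.49) ranged from -1.90 to -0.74. The cause was not tested.

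Seed 1 and leaving out cells with the highest doublet score moved none of these values beyond counting error, though without those cells the core-positive share of T cells changed sign (0.031 against -0.15), as it did at 2 UMIs (0.16) and without thinning (0.19). Other changes of sign within the interval include the mitosis share of monocytes and macrophages at 1000 UMIs (0.17 against -0.42). Settings that left a library with 0 positive cells gave no ratio. No paired analysis was possible because each genotype is 1 library; for the same reason leaving out replicates was not run. Depth limits the labels with few core-positive cells, such as G-MDSC 2 with 2 core-positive cells in each library.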
